A study of Bos taurus with 12 samples.

Results

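Cell cycle and proliferation genes were followed in epithelium and intralobular stroma captured by laser from the mammary gland of dry pregnant cows. The 38 genes listed encode cyclins and their kinases, factors of DNA replication, enzymes that supply nucleotides and proteins of mitosis. A probe set of the array was taken as a member where its annotation gave a single gene symbol and that symbol was on the list. This gave 41 of 24016 probe sets other than controls, for 32 of the 38 genes. MKI67, the Ki67 antigen, TOP2A, a DNA topoisomerase, MCM2, KIF11, CDKN3 and FOXM1 had no such probe set and were not analysed here. Of the 32 genes, 23 had 1 probe set and 9 had 2.

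Tissue was biopsied from 6 Holstein cows 3 weeks before calving, and explants were incubated for 2 h with 50 µM BrdU beside insulin and hydrocortisone. BrdU is a thymidine analog taken up during DNA synthesis. Intralobular epithelial cells and intralobular stroma of each cow were captured from frozen sections, and the methods describe a stromal sample meant to be rich in fibroblasts and taken away from vessels and recognizable leukocytes. The RNA was amplified and read on the Affymetrix Bovine GeneChip, on 6 arrays of epithelium and 6 of stroma. All cows were dry, and the lactation number in the labels was 3 for cow 1, 2 for cow 2 and 1 for the other 4, although the methods call the cows multiparous. There was no untreated or uncultured group. Values are log2 RMA intensities.

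Cell division runs through a gap phase (G1), DNA synthesis (S), a second gap (G2) and mitosis. D-type cyclins with their kinases free E2F factors from the retinoblastoma protein, E2F factors switch on replication genes, and a later program directed by cyclin A, cyclin B and CDK1 drives mitosis. Most of these genes are transcribed mainly in dividing cells. Some, such as the chromatin protein HMGB2 and the tubulin-binding protein STMN1, are also expressed outside the cycle. The redeveloping mammary gland before calving renews epithelial cells and stroma.

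More cell cycle probe sets had a mean above the array medians in epithelium than in stroma, and 12 of 41 lay under them in both. The mean of a member ran from 1.76 to 9.76 in epithelium and from 1.71 to 9.97 in stroma, and the median of the 12 arrays from 2.95 to 3.08. In epithelium, 28 of 41 member probe sets (68.3%) had a mean above the array medians, against 59.7% of the 13292 probe sets with 1 symbol. In stroma, 21 (51.2%) did, against 61.3%. Above the array median on all 6 arrays of a tissue were 14 members in epithelium (34.1%, against 39.1% of probe sets with 1 symbol) and 12 in stroma (29.3%, against 33.8%). On all 12 arrays, 11 members were above (26.8%, against 28.5%), and 4 were above on none. A value above the array median does not establish that a gene was detected, since detection calls were not used here. With the bar raised by 1 on the log2 scale, the means of 11 members in epithelium (26.8%, against 40.6% of probe sets with 1 symbol) and 12 in stroma (29.3%, against 39.5%) lay above it. Probe sets differ in how strongly they bind, so signals of different genes were not ranked.

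**Figure D1:**
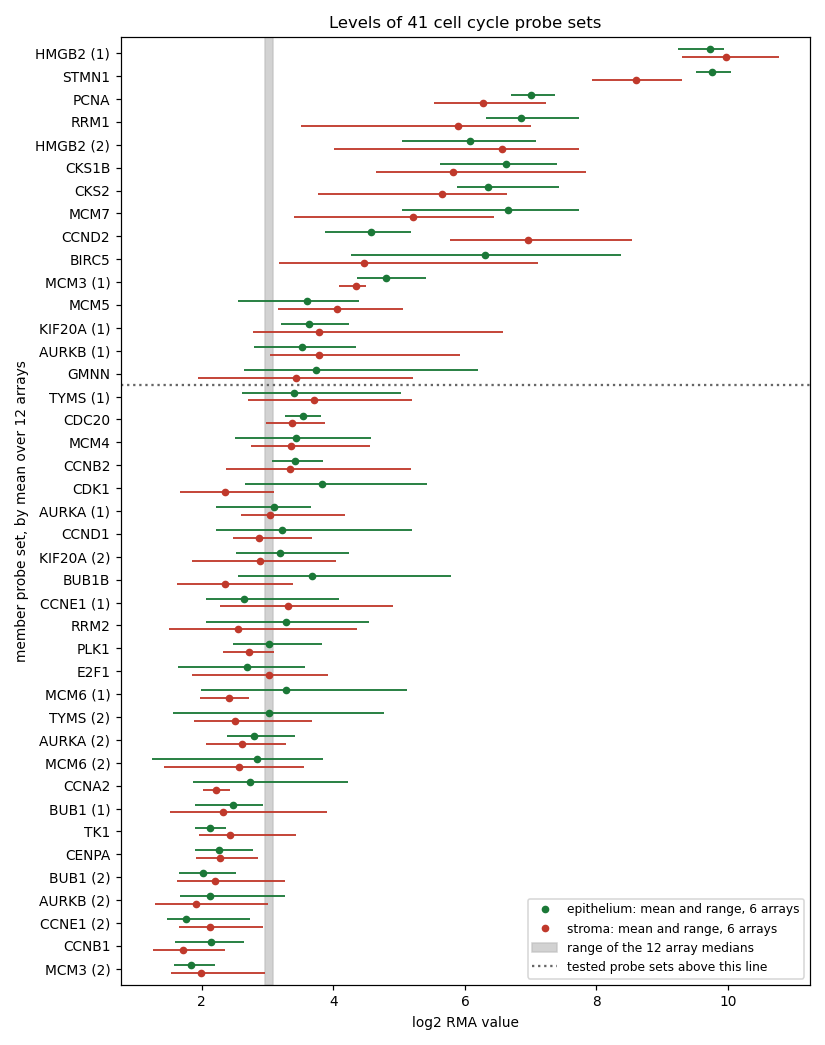
Log2 RMA value of each of the 41 member probe sets, ordered by the mean over 12 arrays, in epithelium (green) and stroma (red). Points are means, lines run from the lowest to the highest of 6 arrays, the grey band holds the 12 array medians and (1) and (2) mark the brighter and the dimmer probe set of a gene. The brighter probe set of HMGB2 and that of STMN1 have means of 8.61 to 9.97. The 26 probe sets under the dotted line had too low a mean over both tissues to be tested.

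By array, 21 to 25 of the 41 members (51.2 to 61.0%) lay above the array median in epithelium, with a median of 24, and 18 to 25 (43.9 to 61.0%) in stroma, with a median of 20. Over all probe sets with 1 symbol, the share was 56.6 to 57.5% in epithelium and 56.3 to 57.4% in stroma. More members were above the median in epithelium than in stroma of 5 cows, and the number was equal in cow 6. The 2 ranges overlap.

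**Figure D2:**
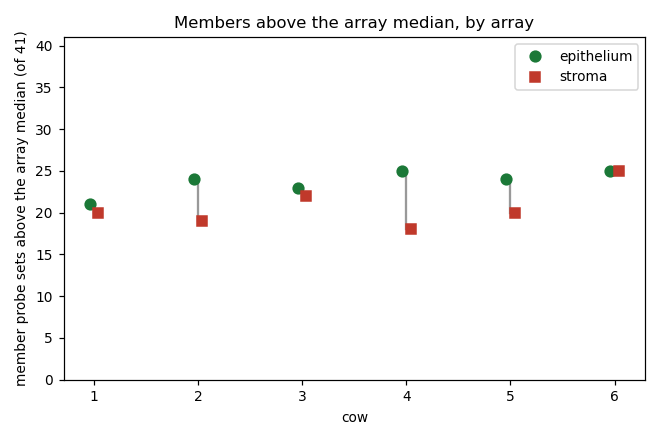
Number of the 41 member probe sets above the median of their array, by cow, in epithelium (green circles) and stroma (red squares). The counts lie between 18 and 25, and those of epithelium are higher in cows 1 to 5 and equal in cow 6.

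Before the comparison of tissues, the captures were checked by markers. Among 14 tested luminal markers, 12 passed with the epithelial mean higher and 0 the other way, and all 12 tested fibroblast markers were higher in stroma. Of 6 tested endothelial markers, 5 were higher in stroma, and so were IGHM and JCHAIN, both of B and plasma cells, among 8 tested markers of T, B and plasma cells and 2 of 8 of myoepithelium and smooth muscle. Of 6 tested markers of monocytes and macrophages, 0 passed. The mean level of the fibroblast list was 3.44 to 5.63 in epithelium and 9.19 to 9.94 in stroma, that of the luminal list 7.21 to 7.93 and 3.98 to 5.49, and that of the endothelial list 2.33 to 2.79 and 4.91 to 6.65. Spread was larger in stroma than in epithelium for 13 of the 15 tested members and for 67.6% of all tested probe sets. Control RNAs added to each sample averaged 3.07 to 6.58 in epithelium and 4.15 to 10.99 in stroma, with the stroma of cows 4, 5 and 6 highest, at 9.07, 10.99 and 10.39. For GAPDH, the 3′ control lay above the 5′ control by a log2 difference of 0.93 to 3.59 in epithelium and 2.31 to 4.75 in stroma. The paper reports lower GAPDH 3′ to 5′ ratios than these differences of RMA values correspond to. It does not say from which signals, and the reason for the discrepancy was not tested. Results without cows 4, 5 and 6 are given below, and the part of the other markers and of the GAPDH gap was not tested. In captured tissue, fewer cells of a type and less RNA per cell cannot be told apart.

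The question put to the arrays was which genes differ between epithelium and stroma of the same cow. Of the member probe sets, 15 (14 genes) were among the brightest 41.8% of probe sets, which alone were tested. This is 36.6% of them against 48.7% of all probe sets with 1 symbol. Among these 15, CCND2 was higher in stroma, BIRC5 was higher in epithelium, and 13 did not pass an adjusted p under 0.05 (limma with cow as a block, Benjamini-Hochberg over all tested probe sets). Over all tested probe sets, 4.54% were higher in stroma and 4.76% in epithelium, or 9.29% in either direction, so 1 of 15 members each way is close to the background. With the tested median of every array set equal, the calls over all tested probe sets came to 516 for stroma and 361 for epithelium, in place of 455 and 477, and the same 2 members passed. Members with a higher mean in epithelium were 9 and in stroma 6. At an unadjusted p under 0.05, 3 members were higher in epithelium and 1 in stroma, beside 14.6% and 8.88% of all tested probe sets. The median stroma minus epithelium difference of the 15 was -0.45 on the log2 scale, beside -0.18 over all tested probe sets.

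**Figure D3:**
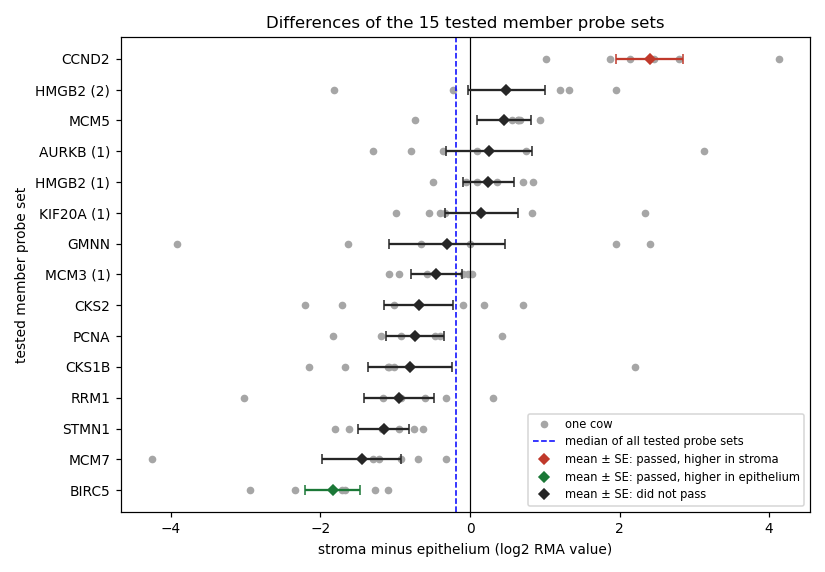
Stroma minus epithelium difference (log2 RMA value) of the 15 tested member probe sets. Grey points are single cows, diamonds with bars are the mean and its standard error from limma, colored where the test was passed, and the dashed line is the median of all tested probe sets, at -0.18. All 6 cows lie right of 0 for CCND2 and left of it for BIRC5, STMN1 and MCM7.

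Among genes of G1 and entry into S phase, CCND2, cyclin D2, which activates CDK4 and CDK6 in response to growth signals, was expressed at a greater level in stroma. Its log2 value was 3.87 at the lowest, 4.59 at the median and 5.17 at the highest of 6 epithelial arrays, and 5.78, 6.64 and 8.54 in stroma. The tissues did not overlap, and the difference lay between 1.01 in cow 6 and 4.13 in cow 4. CCND2 was higher in stroma by 2.40 on the log2 scale, or 5.28-fold (standard error 0.44, adjusted p = 0.0109). The call was lost without cows 4, 5 and 6, whose stromal control RNA was high (adjusted p = 0.0740, difference 2.37). In that setting with fewer cows, 219 of all tested probe sets were higher in stroma, in place of 455. Among all tested probe sets, 3.39% were without overlap in that direction and 7.04% had stroma higher in all 6 cows. Fibroblast and endothelial markers, IGHM, JCHAIN and 2 markers of myoepithelium and smooth muscle were higher in the same captures. The cells that the CCND2 signal came from were not tested.

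CKS1B, a small protein that binds cyclin-dependent kinases and helps to mark the inhibitor p27 for breakdown, had values of 5.62, 6.80 and 7.40 in epithelium (lowest, median, highest) and 4.65, 5.64 and 7.84 in stroma. Its means were 6.62 ± 0.78 (SD, n = 6) and 5.82 ± 1.08. It was lower in the stroma of 5 cows and higher by 2.21 in that of cow 5, and the difference of -0.80 did not pass (standard error 0.56, adjusted p = 0.432). The other genes of this step lay near or under the array medians. CCND1, cyclin D1, E2F1, a transcription factor of S phase genes, and both probe sets of CCNE1, cyclin E1, had means of 1.76 to 3.31 and were not tested. CCND1 reached 5.19 in the epithelium of cow 4, the highest value of these probe sets.

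Among replication genes, PCNA, the sliding clamp of DNA polymerase, and MCM7, a subunit of the replicative helicase, were above the array median on all 12 arrays. So was the brighter probe set of MCM3. PCNA had a lowest, median and highest value of 6.70, 6.98 and 7.37 in epithelium and of 5.54, 6.22 and 7.24 in stroma, so the tissues overlapped. Its difference was -0.73 (standard error 0.39, adjusted p = 0.296). MCM7 had values of 5.04, 6.70 and 7.74 in epithelium and 3.40, 5.52 and 6.44 in stroma. Each of 6 cows had the lower value in stroma, by 0.32 to 4.25, with the widest gap in cow 5, and its mean difference of -1.45 did not pass (standard error 0.53, adjusted p = 0.137). The same direction in all 6 cows, with epithelium higher, was found for 9.32% of all tested probe sets.

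The other MCM subunits had smaller differences than MCM7, in both directions. The brighter probe set of MCM3 had values of 4.36, 4.63 and 5.40 in epithelium and 4.09, 4.37 and 4.49 in stroma, which overlap, and a difference of -0.45 (standard error 0.34, adjusted p = 0.466). The dimmer one had means of 1.84 and 1.99. MCM5 lay higher in the stroma of 5 cows, with means of 3.60 and 4.05 and a difference of 0.45 (standard error 0.36, adjusted p = 0.489). MCM4 had means of 3.43 and 3.35, and the 2 probe sets of MCM6 had means of 3.28 and 2.83 in epithelium and 2.42 and 2.57 in stroma, all outside the tested probe sets. The brighter probe set of MCM6 was lower in the stroma of 6 cows, with a difference of -0.86. The dimmer one was lower in 4 cows and higher in 2, with a difference of -0.27. How many untested probe sets share a direction in all cows was not counted. GMNN, geminin, which blocks a second round of replication, ran from 2.65 to 6.19 in epithelium and from 1.94 to 5.21 in stroma. Its difference was -3.92 in cow 3 and 2.40 in cow 1, with a mean of -0.31 (standard error 0.78, adjusted p = 0.852). Without cow 3 the mean difference of GMNN was 0.41.

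Of the genes of nucleotide supply, RRM1 was the one tested. It encodes the large subunit of ribonucleotide reductase, which makes deoxyribonucleotides, and had values of 6.32, 6.65 and 7.73 in epithelium (lowest, median, highest) and 3.50, 6.37 and 7.01 in stroma. The lowest value was that of the stroma of cow 6, and the mean difference of -0.95 did not pass (standard error 0.47, adjusted p = 0.256). RRM2, the small subunit that is made mainly in S phase, had means of 3.27 and 2.55. TYMS, thymidylate synthase, had means of 3.40 and 3.71 in its brighter probe set and 3.02 and 2.50 in the dimmer one, and TK1, thymidine kinase, of 2.12 and 2.43. None of these 3 genes was tested.

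Genes that direct mitosis were mostly near or under the array medians. CDK1, the kinase that starts mitosis, had values of 2.65, 3.78 and 5.43 in epithelium and 1.67, 2.38 and 3.10 in stroma, and it was lower in the stroma of 5 cows. In a fit of all 24016 probe sets, its difference of -1.47 had the lowest adjusted p of the 26 members outside the tested set, at 0.105. Its partners CCNB1 and CCNB2, the B cyclins, had means of 2.14 and 3.42 in epithelium and 1.71 and 3.34 in stroma, and CCNA2, cyclin A2, of 2.74 and 2.22. The kinases PLK1 and AURKA had means of 2.61 to 3.09 in both tissues over their 3 probe sets. AURKB, the kinase of the chromosomal passenger complex, was tested in its brighter probe set, with means of 3.52 in epithelium and 3.78 in stroma and a difference of 0.25 (standard error 0.57, adjusted p = 0.831). Its highest value, 5.93, was that of the stroma of cow 3, and without that cow the difference was -0.32.

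CKS2, a relative of CKS1B, was the sole member of the mitotic cyclin and kinase group above the array median on all 12 arrays. It ran from 5.87 through a median of 5.98 to 7.43 in epithelium and from 3.76 through 5.89 to 6.64 in stroma. It was lower in the stroma of 4 cows, and the difference of -0.69 did not pass (standard error 0.47, adjusted p = 0.413). Among genes of the spindle checkpoint and of anaphase, BUB1 had means of 2.01 to 2.48 over 2 probe sets and both tissues. BUB1B had 3.68 in epithelium and 2.35 in stroma, with 5.79 in the epithelium of cow 5. CDC20, which activates the anaphase-promoting complex, had 3.53 and 3.36 and was above the array median on all 6 epithelial arrays. None of the 3 was tested.

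Of the proteins of chromosomes and spindle, BIRC5, survivin, a subunit of the chromosomal passenger complex that also restrains cell death, was expressed at a greater level in epithelium. It ran from 4.27 through a median of 6.32 to 8.38 in epithelium and from 3.18 through 4.15 to 7.10 in stroma. The tissues overlapped. Cows differed by over 3 on the log2 scale within a tissue, and both captures of cow 2 were the highest of their tissue and both of cow 5 the lowest. Within cows, the stroma lay lower by 1.09 in cow 5 to 2.94 in cow 1. BIRC5 was higher in epithelium by 3.58-fold (log2 difference -1.84, standard error 0.37, adjusted p = 0.0167). The call was lost without the cow block (adjusted p = 0.182) and with cow as a random block (0.134), with the difference unchanged at -1.84. It was also lost without cow 1 (adjusted p = 0.0581, difference -1.62) and without cows 4, 5 and 6 (adjusted p = 0.141, difference -1.97). The stromal values of cows 4 and 5 lay 0.20 and 0.12 above their array medians.

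STMN1, stathmin, which binds tubulin and is switched off by mitotic kinases, had values of 9.52, 9.75 and 10.04 in epithelium (lowest, median, highest), with an SD of 0.17. In stroma it ran from 7.93 through 8.56 to 9.30, below every epithelial value. Its difference was -1.15, or 2.23-fold (standard error 0.34), with an adjusted p of 0.0708 in the main model. It passed without the cow block (adjusted p = 0.0419), with cow as a random block (0.0295), with an intensity trend and robust prior (0.0184) and without a filter (0.0440). Groups that do not overlap with epithelium higher were found for 2.79% of all tested probe sets.

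HMGB2, a DNA-bending chromatin protein, was above the array median on all 12 arrays and did not pass the test in either probe set. The brighter one ran from 9.25 through a median of 9.80 to 9.94 in epithelium and from 9.30 through 9.97 to 10.77 in stroma, and its difference was 0.24 (standard error 0.34, adjusted p = 0.712). The dimmer one ran from 5.04 through 6.12 to 7.08 in epithelium, and in stroma it was lowest in cow 1, with a median of 6.91 and a highest value of 7.73. Its difference was 0.48 (standard error 0.52, adjusted p = 0.620). The tissues overlapped in both. KIF20A, a kinesin of cytokinesis, had means of 3.63 and 3.78 in its tested probe set (adjusted p = 0.888), with 6.57 in the stroma of cow 6. Without that cow the difference of KIF20A went from 0.15 to -0.29. CENPA, the histone of centromeres, was not above the array median on any of the 12 arrays, with means of 2.26 and 2.27.

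**Figure D4:**
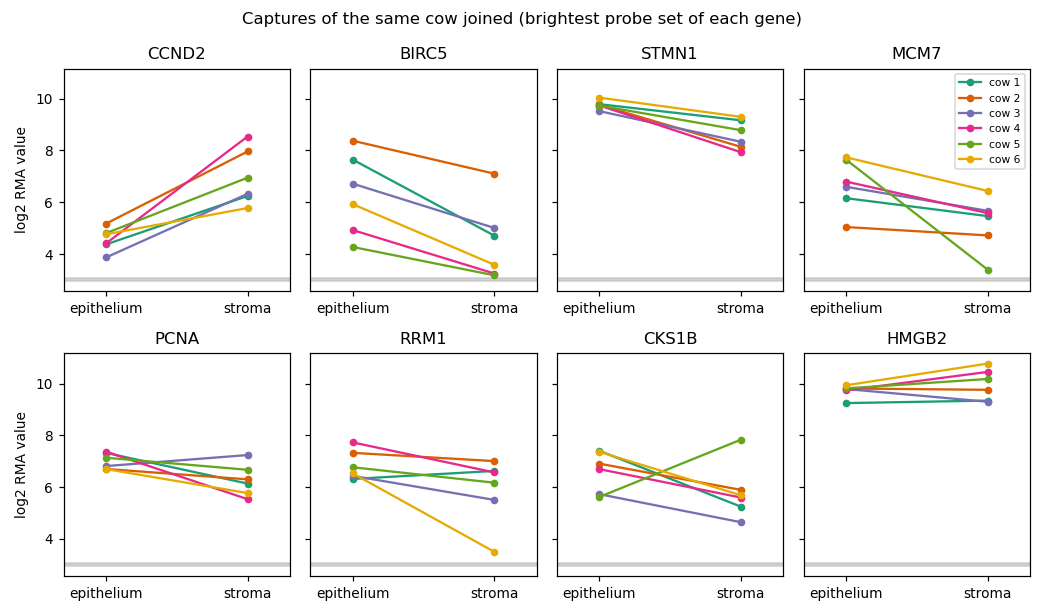
Log2 RMA values of 8 member genes, each by its brightest probe set, in epithelium and stroma. Lines connect both tissues of a cow, and the grey band holds the 12 array medians. CCND2 rises toward stroma in 6 of 6 cows and BIRC5, STMN1 and MCM7 fall, and cow 5 (green) runs against the others for CKS1B.

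The 26 members outside the tested set had means of 1.71 to 3.83. Of these, 13 had a mean above the array medians in epithelium and 6 in stroma, and 18 had the higher mean in epithelium and 8 in stroma. The same shares over all untested probe sets were not counted, so these counts are not read as a trait of the members. Over all 41 members, tested or not, the median difference was -0.22, beside 0.04 over all probe sets with 1 symbol. The filter took the mean over both tissues. CDK1 and BUB1B, with means of 3.83 and 3.68 in epithelium, were therefore outside, while MCM5, with 3.60 there, was tested. In the fit of all probe sets, none of the 26 passed (limma, adjusted p from 0.105 to 0.985), 2 had an unadjusted p under 0.05, and in none of them were the tissues free of overlap. In that fit CCND2, BIRC5 and STMN1 were the members that passed, beside 1.76% of all probe sets higher in stroma and 1.62% in epithelium. The 2 probe sets of a gene differed in mean level by 0.15 for MCM6 up to 3.53 for HMGB2, and their differences had the same sign for 4 genes and opposite signs for 5 (AURKB, BUB1, KIF20A, MCM3 and TYMS). HMGB2 alone had both probe sets tested.

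Other genes of the cycle were read from lists, each gene by its brightest tested probe set, and 4.48% of the 5222 genes so tested were higher in stroma and 4.62% in epithelium, with a median difference of -0.20. Of 63 other S phase genes listed, 46 were on the array and 21 were tested. Of these 21, 1 was higher in epithelium and 0 in stroma, with a median difference of -0.68. CDCA7, a zinc finger protein that acts in DNA methylation and is a target of MYC and E2F factors, had the lower value in stroma in 6 of 6 cows, with values of 3.42, 5.07 and 5.82 in epithelium and 2.09, 2.70 and 3.80 in stroma (difference -2.03, standard error 0.38, adjusted p = 0.0115). Without cows 4, 5 and 6 its difference was -2.53 (adjusted p = 0.0637). Its stromal mean of 2.89 lay under the array medians, so its fold is not exact.

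Of 87 other mitotic genes listed, 54 were on the array and 19 were tested. Of these 19, 17 had the higher mean in epithelium, and 0 passed in either direction. Their median difference was -0.61, beside -0.20 over the 5222 genes tested this way, which also leaned to epithelium. The share of those genes with the higher mean in epithelium was not counted. SPC24, a part of the kinetochore, had the largest difference, at -1.47 (standard error 0.84, adjusted p = 0.333). Of 7 tested subunits and partners of the anaphase-promoting complex, the ubiquitin ligase that ends mitosis (14 listed, 10 on the array), 0 passed, with a median of -0.33. ANAPC13 had the largest difference, at -2.46 (standard error 0.80, adjusted p = 0.0970).

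Of 16 tested cyclin-dependent kinases, cyclins and members of the RB and E2F families (26 listed, 21 on the array), 1 was higher in epithelium and 0 in stroma, with a median difference of -0.17. MNAT1, which assembles the kinase that activates other cyclin-dependent kinases, was higher in epithelium by 1.78 on the log2 scale (standard error 0.44, adjusted p = 0.0389), and its call was lost in 10 of 14 alternatives (adjusted p from 0.0379 to 0.137). Its other probe set was outside the tested set, with means of 2.73 in epithelium and 2.34 in stroma and a difference of -0.40. Of the 16, 11 had the higher mean in epithelium and 5 in stroma, and their median of -0.17 was close to the -0.20 of all genes so tested.

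Of 25 listed inhibitors of the cycle, 12 were on the array. Of 10 tested kinase inhibitors and antiproliferative genes, 1 was higher in stroma and 0 in epithelium, with a median difference of 0.25. CDKN1C, p57, an imprinted inhibitor of G1 kinases, was higher in stroma by 2.62 on the log2 scale (standard error 0.41, adjusted p = 0.00480). It ran from 2.59 through a median of 3.44 to 4.37 in epithelium and from 4.95 through 6.17 to 7.60 in stroma, without overlap, and the call was held in 13 of 13 alternatives. Of its other 2 probe sets, 1 was higher in stroma by 1.62 (adjusted p = 0.0473) and 1 had a difference of 0.27 (adjusted p = 0.685). As for CCND2, markers of fibroblasts, endothelium and other cells were higher in the same captures, and the cells that the CDKN1C signal came from were not tested. CDCA7, MNAT1 and CDKN1C are the tested genes of these 5 lists that passed.

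**Figure D5:**
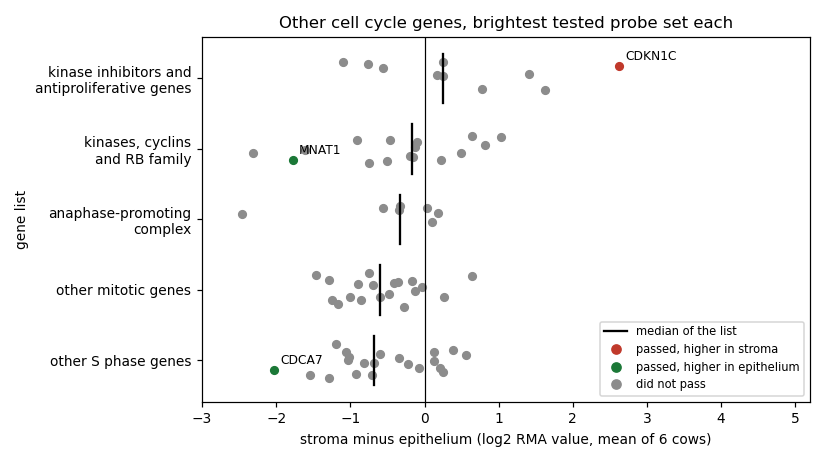
Tested genes of 5 other cell cycle lists, plotted by the mean over cows of stroma minus epithelium on the log2 scale, each by its brightest tested probe set, with colored points where the test was passed and a black bar at the median of each list. The medians of the S phase and mitotic lists lie at -0.68 and -0.61, that of the inhibitors at 0.25, and CDKN1C, CDCA7 and MNAT1 are the colored points.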

How the data were processed

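Laser-captured epithelium and stroma of 6 cows were measured on 12 arrays. The authors prepared the deposited log2 values by RMA with quantile normalization across 24 arrays, of which these 12 were used here. RMA brings the probe signals of arrays to a common distribution, so a shift of all genes of an array cannot be read. Smaller offsets remained. Array medians ran from 2.95 to 3.08, and means of the tested probe sets from 5.16 to 5.70. The arrays hold 24128 probe sets, of which 112 were controls. Gene symbols came from the platform annotation (13292 probe sets with 1 symbol, 86 with several, 10638 with none) and for 13263 of the first the gene ID was found in RefSeq, with 0 changed symbols.

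Stroma was compared with epithelium by limma 3.58.1 (R 4.3.3) with tissue and cow as terms, and p-values were adjusted by Benjamini-Hochberg over the 10031 probe sets with the highest mean, threshold 0.05. The methods filtered by detection calls and fitted tissue alone. The latter was run as an alternative. Cow was a block because both captures came from the same animal. Deviations from the tissue means of the same cow correlated at 0.026 to 0.201, positive in 6 of 6 cows. Cows are the replicates, and the number of arrays limits the precision. Members were counted above the median of all non-control probe sets of an array.

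Alternatives were no block, a random block, a trended robust prior, other filters, renewed quantile normalization, centring, each cow left out, and, chosen after seeing the data, cows 4, 5 and 6 left out and the settings for CDKN1C, CDCA7 and MNAT1. Members and lists were chosen with earlier results of these data known. The rule was to name or count every member, to give array values for members that passed or were tested and above the median on all 12 arrays, and to name from each other list up to 4 genes that passed or otherwise the 1 with the largest difference. The fit was tested on simulated data.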

Additional observations from a re-analysis of the deposited data

Results flagged for a closer look

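In 84 groups of 6 values, 10 had a highest or lowest array set apart from the rest beyond Dixon's 95% limit for the gap over the range, where chance gives about 1 in 20. Among tested members, HMGB2 (brighter probe set) was at 9.25 in the epithelium of cow 1, against 9.74 to 9.94 in the other 5. CKS2 was at 3.76 in the stroma of cow 5, against 5.71 to 6.64, and AURKB (brighter probe set) at 5.93 in the stroma of cow 3, against 3.04 to 3.67.

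The other 7 were dim probe sets outside the tested set. In epithelium, TYMS (brighter probe set) reached 5.03 in cow 5, against 2.61 to 3.51. CCNE1 reached 4.08 in cow 1 by its brighter probe set, against 2.07 to 2.74, and 2.73 in cow 5 by its dimmer one, against 1.47 to 1.69. In stroma, AURKA (brighter probe set) reached 4.18 in cow 6, against 2.60 to 3.19, and TK1 3.43 in cow 6, against 1.96 to 2.47. CCND1 reached 3.68 in cow 5, against 2.47 to 2.90, and BUB1 (dimmer probe set) 3.26 in cow 5, against 1.62 to 2.22. The cause was not tested.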

How the results depend on the processing

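Of the 41 member probe sets, 26 had too low a mean over both tissues to be tested, and stromal captures varied more than epithelial ones. The paired analysis with cow as a replicate block was the main one. Without the block, 481 of all tested probe sets were higher in stroma and 462 in epithelium, and CCND2 and STMN1 were the members that passed, with BIRC5 at an adjusted p of 0.182. CCND2 passed in 14 of 15 alternatives (adjusted p from 0.00303 to 0.0740), BIRC5 in 11 of 15 (0.0152 to 0.182) and STMN1 in 4 of 15 (0.0184 to 0.302). MCM7, PCNA, RRM1, CKS1B, CKS2, MCM3, MCM5 and the dimmer probe set of HMGB2 kept their direction and passed in none.

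Members that passed with epithelium higher numbered 2 with a trended robust prior, beside 494 of all tested probe sets. Without a filter they numbered 2, beside 389 of all probe sets (1.62%). With each cow left out, 0 to 1 members passed with epithelium higher (0 without cow 1). Without cows 4, 5 and 6 there were 0 in epithelium and 0 in stroma, with 86 and 219 of all tested probe sets. Calls over all tested probe sets came to 274 for epithelium and 239 for stroma among the brightest 5000, 267 and 193 among those bright on 8 of 12 arrays, and 267 to 404 and 331 to 450 with each cow left out. The fewest in epithelium, 267, were found without cow 1, with 282 without cow 2 and 279 without cow 4. The median difference of the tested members was -0.77 in the brightest 5000, beside -0.31 over all probe sets tested there. Among those bright on 8 of 12 arrays it was -0.73, beside -0.27. After centring it was -0.28, and the median of all tested probe sets moved from -0.18 to -0.01. With each cow left out, the median of the members ran from -0.55 to -0.33, beside -0.22 to -0.17 over all tested probe sets. Without cows 4, 5 and 6 it was -0.32, beside -0.09. With the bar at 1 above the array median, 6 members lay above it on all stromal arrays (14.6%, against 18.9% of probe sets with 1 symbol). By the mean, 11 did in epithelium (26.8%, against 40.6%) and 12 in stroma (29.3%, against 39.5%). With probe sets of a gene averaged, 3 inhibitors were higher in stroma (GADD45A and KLF4 beside CDKN1C, whose difference was then 1.50) and 2 S phase genes in epithelium (RFC5 beside CDCA7), beside 4.90% and 5.67% of all 5222 genes. Without a filter, 0 kinases and cyclins were higher in epithelium, beside 2.18% of 9155 genes. With each cow left out, AURKB ranged from -0.32 to 0.56, GMNN from -0.85 to 0.41 and KIF20A from -0.29 to 0.38. The sign turned for AURKB without cow 3 (-0.32), GMNN without cow 3 (0.41), KIF20A without cow 6 (-0.29) and without cows 4, 5 and 6 (-0.19), and HMGB2 (brighter probe set) without cows 4, 5 and 6 (-0.15). None of these 4 genes passed in any setting. Other causes of these changes were not tested.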
